A study of Ovis aries with 9 samples.

Results

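Among the genes of rumen epithelial (RE) cells, 144 were at least 2-fold lower after treatment with GA-017 (GA) and at least 2-fold lower after treatment with verteporfin (VP) than in untreated cells (Con). They were chosen by a rule on CPM (the counts of a gene scaled to the total of its library). The rule took genes with a mean of 1 CPM or more in at least one group, for which L, defined as log2((mean treated CPM + 0.1)/(mean Con CPM + 0.1)), was -1 or less in both treatments, and for which no treated library reached the lowest Con library. The table holds 25962 Ensembl gene identifiers, of which 11709 passed the filter, and the 144 members were 1.23% of these. As no treated library reached the lowest Con library, the rule itself made all members pass the filter through Con. Of them, 98 also reached a mean of 1 CPM in GA, 103 did so in VP, and 37 did so in neither treatment.

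The samples were wild-type primary RE cells of sheep, which the study had isolated from newborn Hu lambs. RNA-seq was performed on 3 wells treated with 10 μM GA for 24 h, 3 wells treated with 5 μM VP for 24 h, and 3 untreated wells. The wells came from cultured cells and no animal is given for any of them, so the spread between wells may be technical, and the p-values measure that spread alone. According to the study's methods, both compounds were diluted in DMSO. Con is labelled as untreated and no vehicle group was analysed here, so for genes lowered in both treatments the compounds and their vehicle cannot be told apart.

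YAP1 and TAZ are transcriptional co-activators that are held in the cytoplasm when the kinases of the Hippo pathway phosphorylate them. When they enter the nucleus, they bind TEAD transcription factors and raise the transcription of genes for growth, adhesion and matrix. In stratified squamous epithelia their activity has been linked to proliferation. For RE cells the study set this out as an open question. GA was used in the study to activate YAP1/TAZ and VP to disrupt the transcription driven with TEAD, so the compounds were chosen for opposite actions, and the members are the genes that were lower under both. The files do not pair the Ensembl identifiers with gene symbols, and 0 identifiers could be matched to the RefSeq table at hand (ARS-UI_Ramb_v3.0). For that reason no function can be given for a member, no pathway or marker list was counted, and the labelled cell type was not checked against its markers.

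Between 14458606 and 15814380 counts were available per library, so the deepest library had 1.09 times the counts of the shallowest, and 3 counts corresponded to between 0.190 and 0.207 CPM. Well 3 of Con, well 1 of GA and well 3 of VP stood apart from the other wells of their groups. On the first component of the deviations from the group means, which held 39.1% of that variance over the 11709 genes, these wells lay between 14.0 and 16.6 and the other 6 wells between -10.3 and -3.72. All 3 of these wells were the highest of their groups for 29 of the 144 members (20.1%) and for 2351 of all genes past the filter (20.1%). Applied without these 3 wells, the rule found 180 genes, of which 129 were among the 144.

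In Con, the members ranged from 1.01 to 4823 CPM with a median of 9.12 CPM, against a median of 22.8 CPM over all 11709 genes. Their median level was 2.44 CPM in GA and 2.92 CPM in VP. Thus most members were transcripts of low to moderate abundance, with 54 below 5 CPM in Con, 68 between 5 and 50 CPM, and 22 at 50 CPM or more. The wells of Con differed more for the scarce members, with a median coefficient of variation of 21.7% below 5 CPM, 10.3% between 5 and 50 CPM and 6.41% at 50 CPM or more. Over all genes past the filter, these coefficients were 23.1%, 10.0% and 5.06%. In bulk RNA of a well, fewer cells of a type and less RNA of a gene per cell cannot be told apart.

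L and the separation of the treated libraries from Con chose the members, so these values are a description and carry no test. The median L was -1.54 in GA and -1.49 in VP, against -0.03 and -0.09 over all genes past the filter, and over the same members it was -1.61 and -1.54 without the 3 wells that stood apart. In GA the members ranged from -5.09 to -1.001, and in VP from -4.53 to -1.002. L lay above -1.5 for 65 members in GA and for 73 in VP, it was -2 or less for 35 members in GA and 30 in VP, and it was -3 or less for 9 and 7. In the quasi-likelihood test of edgeR, at a Benjamini-Hochberg FDR < 0.05 and |log2 fold change| > 1 (as the study defined DEGs), 140 members were called lower in GA than in Con, where 5.85% of all tested genes were, and 131 were called lower in VP, where 10.3% were. The rule used these contrasts, so the calls follow from the choice of the members and nothing is read from their counts. The separation from Con, which the rule asks for, was present in 11.5% of all tested genes.

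**Figure D1:**
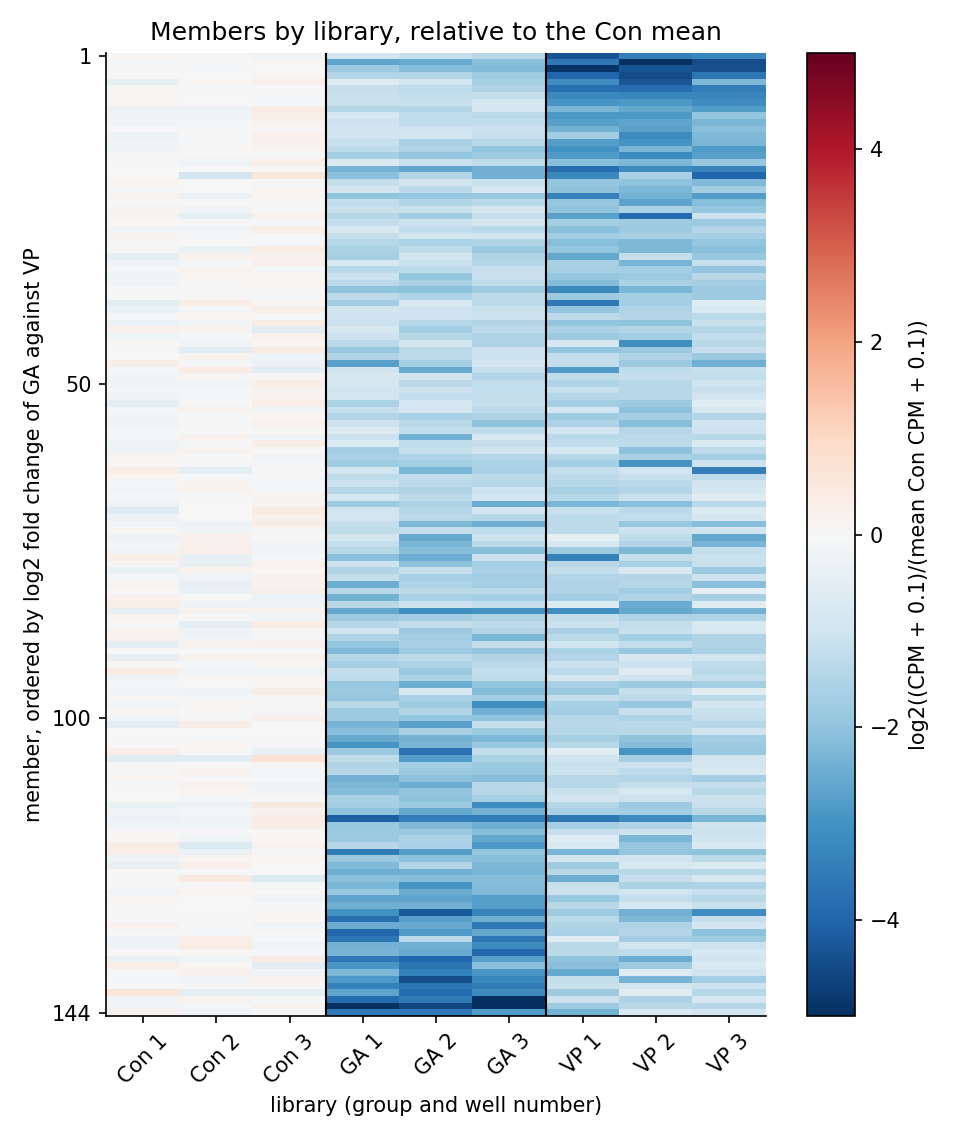
Each row is 1 of the 144 members and each column 1 library, coloured by log2((CPM + 0.1)/(mean Con CPM + 0.1)), with rows ordered by the log2 fold change of GA against VP. The top rows are darkest in the VP wells and the bottom rows darkest in the GA wells, while the middle rows are of similar depth in both.

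The lowest Con library lay above the highest of the 6 treated libraries by a median of 0.80 on the log2 scale, and by more than 1 for 45 members. The gap was widest (2.30) for a member with 1573, 1561 and 1537 counts in Con, 308, 261 and 300 in GA, and 113, 167 and 165 in VP. It was narrowest (0.0035) for a scarce member with 32, 14 and 26 counts in Con, 8, 7 and 2 in GA, and 14, 5 and 14 in VP, where the second Con well held no more counts than 2 of the VP wells. Of the 159 genes past both fold thresholds, 15 were left out because a treated library overlapped Con. Just inside the threshold, L was -1.001 in GA and -1.66 in VP for a member with 159 CPM in Con, and just outside it L was -1.46 in GA and -0.9997 in VP for a gene with 76.7 CPM in Con. As 38 members had their larger L between -1.1 and -1, and 42 further separated genes lay between -1 and -0.9, the threshold cuts through a continuous range.

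To give L in wells that the rule did not use, the rule was applied to 2 well numbers and L was read in the remaining well of each group. Chosen without the wells numbered 1, 200 genes passed, with a median L of -1.55 in GA and -1.47 in VP. In the wells numbered 1, their median L was -1.11 in GA and -1.35 in VP, and 85 of them (42.5%) had an L of -1 or less in both, against 1.42% of all genes past the filter. Chosen without the wells numbered 2, 162 genes passed, and their median L in those wells was -1.52 in GA and -1.45 in VP, with 93 (57.4%) at -1 or less in both, against 1.96% of all. Without the wells numbered 3, 150 genes passed, and their median L in those wells was -1.66 in GA and -1.27 in VP, with 81 (54.0%) at -1 or less in both, against 2.18% of all. Both L were negative in the wells not used for 167 of the 200, 146 of the 162 and 143 of the 150 genes. The share of all genes past the filter with both L negative was not counted, and both L share the same Con well, so nothing is read from these counts. The shares at -1 or less rest on that same Con well, and a high level in it lowers both L together. The wells not used belong to the same experiment, so these shares are a description and not a replication. Of the chosen genes, 122 of the 200, 122 of the 162 and 119 of the 150 were among the members chosen on all wells. The wells numbered 1 include well 1 of GA, and those numbered 3 include well 3 of Con and well 3 of VP, which stood apart from their groups. The labels do not say that wells of the same number belong together. With 1 library per group in each reading, these values have no test.

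**Figure D2:**
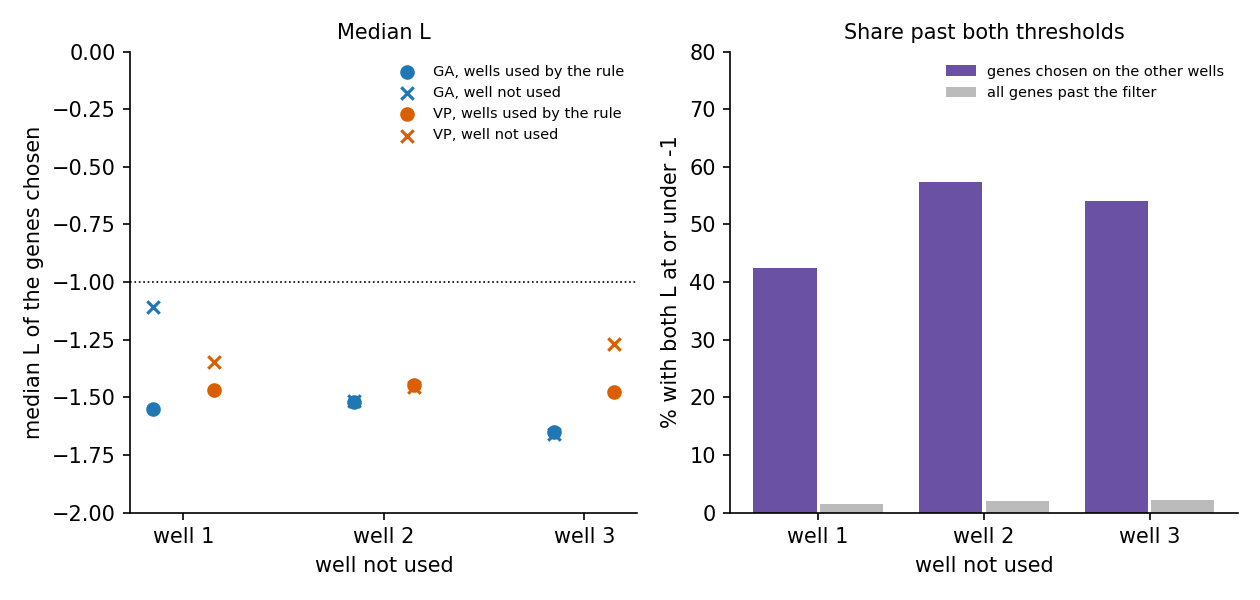
The left panel plots the median L of the genes chosen on 2 well numbers, in the wells used (circles) and in the well not used (crosses), for GA and VP, and the right panel plots the share of those genes, and of all genes past the filter, with both L at -1 or less in the well not used. The crosses lie between -1.66 and -1.11, and the shares are 42.5%, 57.4% and 54.0% against 1.42%, 1.96% and 2.18%. Both L share the same Con well in each reading, and the shares are a description and not a replication.

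The member with the most negative larger L, ENSOARG00020004992, had 278, 296 and 400 counts in Con, 18, 30 and 28 in GA, and 26, 35 and 69 in VP. All treated wells were thus far below all Con wells, and the GA and VP wells overlapped. The Con level was 21.6 ± 5.30 CPM, of which GA kept 7.64% (1.65 ± 0.400 CPM) and VP 13.0% (2.80 ± 1.39 CPM; SD, n = 3). GA and VP differed by a log2 fold change of -0.80 (SE 0.33, FDR = 0.046 by edgeR), which did not pass the fold change threshold, and the FDR ranged from 0.00606 to 0.648 over the alternatives. Without well 1 of VP the log2 fold change was -1.06 and passed both thresholds (FDR = 0.0116 by edgeR), and without well 3 of VP it was -0.35 (FDR = 0.363 by edgeR). Both L were -2 or less for 7 members, this one included, and their Con levels ranged from 1.05 to 103 CPM.

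The member with the highest Con level, ENSOARG00020005683, had 78516, 74709 and 66006 counts in Con, 33687, 32936 and 32977 in GA, and 7884, 7397 and 7714 in VP. The groups were widely separated, with the wells of GA and of VP close to each other. From 4823 ± 240 CPM in Con, the level went down to 44.9% with GA (2167 ± 58.7 CPM) and to 10.3% with VP (499 ± 12.1 CPM; SD, n = 3). Among all genes past the filter it ranked 14 by level in Con, 49 in GA and 280 in VP. The direct difference between GA and VP was a log2 fold change of 2.07 (SE 0.07, FDR = 6.02e-14 by edgeR), with a range of 2.01 to 2.10 when single libraries, or the 3 wells that stood apart, were omitted.

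This gene alone held 49.5% of the counts on the 144 members in Con, 55.8% in GA and 22.6% in VP. All members together took 0.976% ± 0.00627 of a Con library, 0.388% ± 0.0152 of a GA library and 0.220% ± 0.0107 of a VP library (SD, n = 3). Without the most abundant member, the shares were 0.494% ± 0.021 for Con, 0.172% ± 0.00939 for GA and 0.170% ± 0.0118 for VP (SD, n = 3). The remaining 143 members were therefore at nearly the same summed level in GA, where the wells ranged from 0.166% to 0.183%, and in VP, where they ranged from 0.162% to 0.184%. Abundant members weigh most in this sum, and differences in both directions cancel in it. For example, a member with 588 CPM in Con had 184 CPM in GA and 290 CPM in VP. Another with 236 CPM in Con had 104 CPM in GA and 40.5 CPM in VP.

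**Figure D3:**
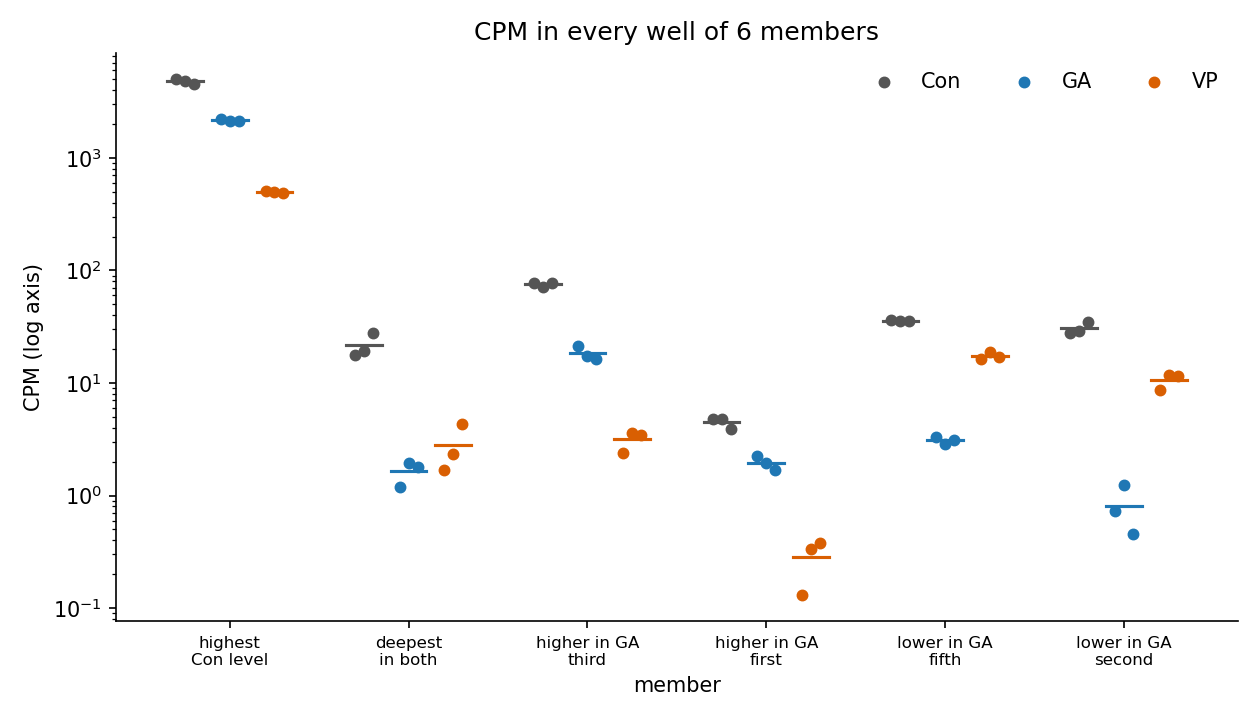
CPM in every well (points, log axis) and the group mean (bars) for 6 members. They begin with the member with the highest Con level and the one with the most negative larger L. The next are the third and first by difference among those higher in GA than in VP. The last are the fifth and second among those lower in GA than in VP. Con wells lie above all treated wells in each, and the GA and VP wells overlap only for the member with the most negative larger L.

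The direct comparison of GA with VP was tested across all 11709 genes in a fit of all 9 libraries with the same edgeR test and thresholds. The rule did not use this comparison, but it chose the members on L in the same GA and VP libraries. Genes lowered past the threshold by GA alone or by VP alone were thereby left out. The member values set beside those of all tested genes were therefore shaped by the choice, and nothing is read from their difference. The doses differed (10 μM GA and 5 μM VP) at the same time of 24 h. Of the 144 members, 17 were higher in GA than in VP (11.8%), where 10.5% of all tested genes were, and 19 were lower in GA than in VP (13.2%), where 5.26% of all tested genes were. The other 108 were not called. Without the 3 wells that stood apart, 16 members were higher and 17 lower, where 1257 and 623 of 11712 tested genes were. At FDR < 0.05 alone, 28 members were higher in GA, where 28% of all tested genes were, and 35 were lower, where 25.3% were. The median log2 fold change of GA against VP was -0.21 over the members and 0.01 over all tested genes. Every GA library lay above every VP library for 31 members (21.5%), against 32.5% of all tested genes, and below for 34 members (23.6%), against 26.3%. The wells of both treatments overlapped for 79 members (54.9%), against 41.3% of all tested genes.

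**Figure D4:**
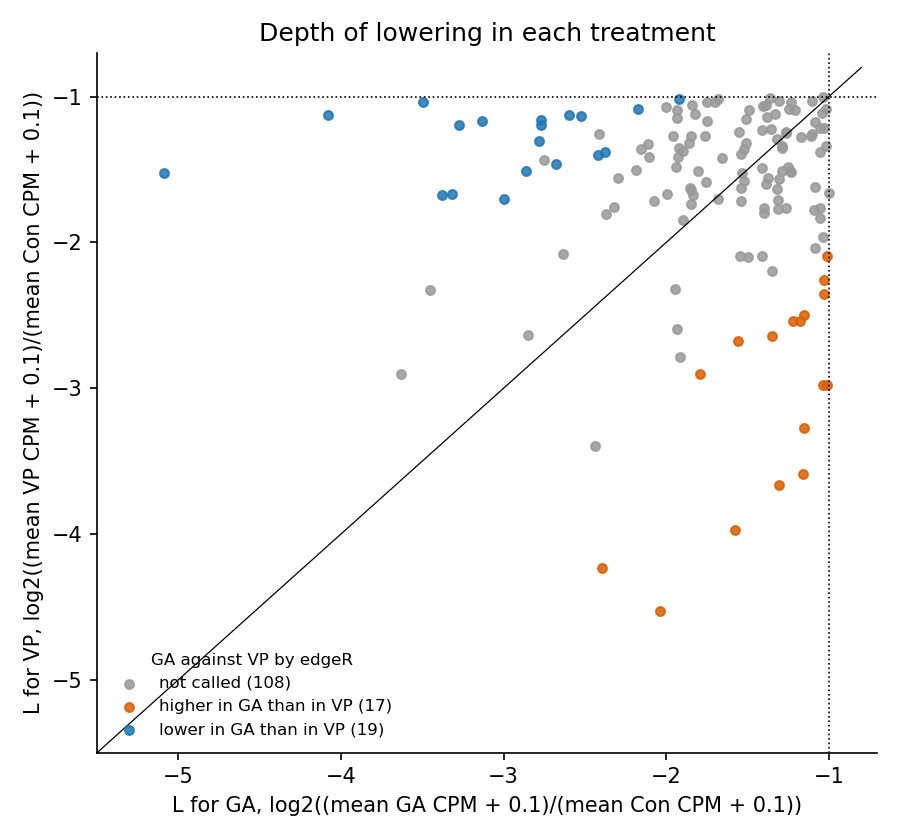
Each point is 1 of the 144 members, plotted by its L in GA and its L in VP, with dotted lines at the threshold of -1 and a solid line where both are equal. Colours give the edgeR call of GA against VP, with 17 members higher in GA below the line, 19 lower in GA above it, and 108 not called on both sides of it.

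The 17 members higher in GA than in VP were those that VP lowered further, with a median L of -1.17 in GA and -2.90 in VP. Their median Con level was 24.1 CPM, with 5 members below 5 CPM and 5 at 50 CPM or more, the most abundant member among them. In all 17, every GA well lay above every VP well, as in 32.5% of all tested genes. The call was made on these same wells, so nothing is read from this. The largest difference was found for a member with 75, 73 and 57 counts in Con, 34, 30 and 26 in GA, and 2, 5 and 6 in VP. It was thus reduced to 43.5% of Con in GA and to 6.26% in VP, and the groups did not overlap. Its log2 fold change of GA against VP was 2.72 (SE 0.42, FDR = 3.18e-05 by edgeR). The second had 50, 51 and 53 counts in Con, 7, 8 and 11 in GA, and 3, 0 and 1 in VP (log2 fold change 2.55, SE 0.70, FDR = 0.00519 by edgeR), so its VP wells were at the level of 3 counts or less, and its log2 fold change was 3.79 when VP well 1 was omitted and 2.04 when VP well 2 was omitted. The third was better covered, with 1217, 1091 and 1109 counts in Con, 320, 267 and 253 in GA, and 37, 54 and 55 in VP. Its Con level was 75.3 ± 3.75 CPM, against 18.3 ± 2.58 CPM after GA and 3.17 ± 0.670 CPM after VP (SD, n = 3), and the log2 fold change of GA against VP was 2.48 (SE 0.15, FDR = 4.08e-10 by edgeR). For the fourth, a Con level of 22.8 CPM went down to 7.57 CPM with GA and 1.36 CPM with VP.

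The 19 members lower in GA than in VP had a median L of -2.78 in GA and -1.20 in VP. They were scarcer, with a median Con level of 5.35 CPM, 9 members below 5 CPM and 1 at 50 CPM or more. In 17 of them, every GA well lay below every VP well, as in 26.3% of all tested genes, and the call was again made on these same wells. The largest fitted difference belonged to a member with 19, 15 and 15 counts in Con, 0, 0 and 1 in GA, and 2, 9 and 8 in VP (log2 fold change of GA against VP -3.86, SE 1.05, FDR = 0.00507 by edgeR). With 1 count over the GA wells and 49 over the Con wells, its ratio of GA to Con was 0.0202 (95% exact interval 0.0005 to 0.118, counting error only), and the fitted value depends on the prior count. Without well 3 of GA, which held that count, the log2 fold change of GA against VP was -5.72, and without the 3 wells that stood apart it was -3.27. The second was well covered, with 435, 448 and 508 counts in Con, 11, 19 and 7 in GA, and 134, 175 and 181 in VP. With a Con level of 30.7 ± 3.85 CPM, it was at 2.62% of Con after GA (0.805 ± 0.395 CPM) and at 34.6% after VP (10.6 ± 1.69 CPM; SD, n = 3). Its log2 fold change of GA against VP was -3.76 (SE 0.25, FDR = 1.04e-09 by edgeR), and its L of -5.09 in GA was the lowest of all members. The third had 101, 125 and 98 counts in Con, 6, 8 and 1 in GA, and 52, 35 and 62 in VP (log2 fold change -3.31, SE 0.41, FDR = 3.25e-06 by edgeR). The fifth, with 563, 548 and 519 counts in Con, 50, 44 and 48 in GA, and 254, 281 and 270 in VP, had little spread in any group, and its log2 fold change was -2.54 (SE 0.14, FDR = 6.99e-11 by edgeR).

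For the 108 members not called between GA and VP, the median L was -1.51 in GA and -1.42 in VP. A missing call does not show that the compounds acted alike, so the 95% interval of the difference was read. It lay within -1 to 1 on the log2 scale for 47 of these members, and for them a difference of more than 2-fold lay outside the interval. For the other 61 the interval reached past 2-fold. Of the 108, 27 had FDR < 0.05 with a fitted difference of less than 2-fold, 12 of them at 50 CPM or more in Con, and 9 of the 27 were among the 47. The precision followed the depth, since the median SE was 0.51 below 5 CPM in Con, 0.21 between 5 and 50 CPM and 0.11 at 50 CPM or more, and the interval lay within -1 to 1 for 3 members, 33 members and 11 members of these levels.

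**Figure D5:**
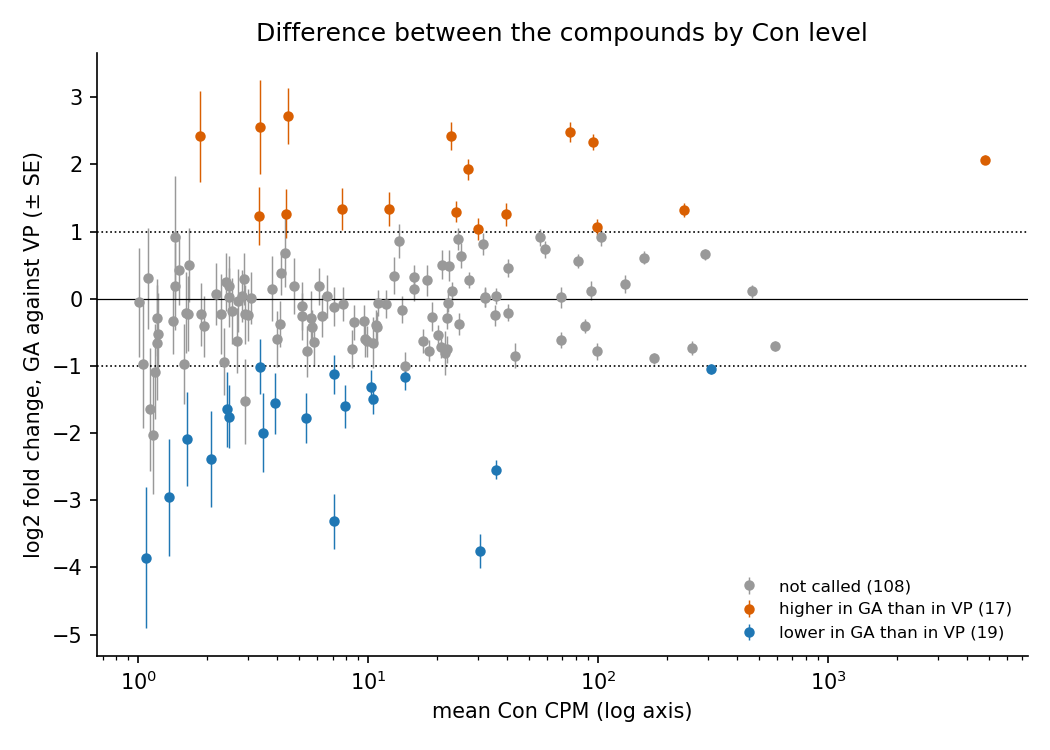
Log2 fold change of GA against VP with its SE for each member, against the mean Con CPM on a log axis, with dotted lines at -1 and 1 and colours for the edgeR call. The error bars shrink from a median of 0.51 below 5 CPM to 0.11 at 50 CPM or more, and 5 of the 22 members at 50 CPM or more were called higher and 1 lower in GA than in VP.

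After the most abundant member, the next had 588 ± 30.1 CPM in Con, against 184 ± 21.8 CPM after GA and 290 ± 19.1 CPM after VP (SD, n = 3). It was lower in GA than in VP by less than 2-fold (log2 fold change -0.71, SE 0.08, FDR = 6.2e-07 by edgeR). The third most abundant member had 466 ± 60.5 CPM in Con, against 217 ± 27.8 CPM after GA and 195 ± 32.6 CPM after VP (SD, n = 3). Its difference between GA and VP was not detected (log2 fold change 0.11, 95% interval -0.11 to 0.32, FDR = 0.396 by edgeR). The fourth, at 310 CPM in Con, had 59.6 CPM after GA and 119 CPM after VP, and it was the member at 50 CPM or more that was called lower in GA (log2 fold change -1.04, SE 0.07, FDR = 1.87e-09 by edgeR).

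At the other end, 12 members had 0 counts in at least 1 treated well, 7 of them in GA and 5 in VP, and no member was at 0 in all wells of a treatment. Their Con wells held between 11 and 53 counts. All GA wells were at 3 counts or less for 6 members, and all VP wells for 2. With L of these members set to the bound that 3 counts allow, the median L stayed at -1.54 in GA and -1.49 in VP. The widest spread between Con wells was found for a member with 114, 108 and 249 counts in Con, 65, 22 and 53 in GA, and 80, 48 and 87 in VP, where Con well 3, one of the wells that stood apart, raised the Con mean. Without that well the rule found 137 genes, of which 117 were among the 144.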

How the data were processed

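Per the labels and the study's methods, CASAVA 1.8 was used on the sequencer output and HISAT2 for mapping, against Oar_rambouillet_v1.0 of the sheep. The table that the authors deposited holds raw counts per Ensembl gene in 9 libraries, neither normalized nor pooled. The counting tool and annotation are not given in the sources used here. Libraries were assigned to groups by their titles. CPM were computed on column totals. The members, the rule and the identifiers printed (the member with the most negative larger L and the one with the highest Con level) were chosen with earlier results of these data known. Other members are described by rank without identifiers, and those ranked past the first, by level or by both L, were picked after their values were seen.

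Genes with a mean of 1 CPM or more in a group were tested with edgeR 4.0.16 in R 4.3.3 (TMM, glmQLFit, glmQLFTest, Benjamini-Hochberg over all genes tested), GA or VP against Con with 6 libraries and GA against VP with 9. The SE was the fold change over the square root of F. Between Con and VP, deviations of wells with the same number correlated over genes at 0.21, 0.12 and 0.43. The last value is of well 3 in both groups, which stood apart. Wells of Con and VP with different numbers ranged from -0.32 (Con 1 with VP 3) to 0.17 (Con 1 with VP 2). Whether the numbers pair these wells cannot be told from these values, and the labels do not say. Wells of GA did not pair by number with either group. The fits were first tested on simulated data. DESeq2 1.42.0, other size factors and filters, a replicate block and fits without single libraries were alternatives. The fits without 3 wells and the reading in wells not used were added after the data were seen. No gene symbol, gene length, genome or sequence was used.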

Additional observations from a re-analysis of the deposited data

Results flagged for a closer look

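The effects of GA and VP against Con were taken as different where the direct edgeR test of GA against VP passed both thresholds. This was so for 17 members higher in GA than in VP (11.8%, against 10.5% of all tested genes). It was also so for 19 members lower in GA than in VP (13.2%, against 5.26% of all tested genes). The members were chosen on L in the same GA and VP libraries, so nothing is read from the difference between these shares. The member with the highest Con level, ENSOARG00020005683, had a log2 fold change of GA against VP of 2.07. The 3 largest among those higher in GA were 2.72, 2.55 and 2.48, of which the second ranged from 2.04 to 3.79 when single libraries were left out. Among those lower in GA, the 3 largest were -3.86, -3.76 and -3.31, the first of which rests on 1 count over the GA wells and was -5.72 without well 3 of GA.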

How the results depend on the processing

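With a pseudocount of 1 CPM in place of 0.1 CPM the rule found 79 genes, all among the 144, and the median L of the 144 was -1.16 in GA and -1.12 in VP. This follows from the construction, since a larger pseudocount shrinks the L of scarce genes. At FDR < 0.05 alone, 28 members were higher and 35 lower in GA than in VP, as fewer criteria applied. Of all tested genes, 28% were higher and 25.3% lower at that setting. Without wells Con 3, GA 1 and VP 3 the median L in GA was -1.61, and the cause was not tested. On TMM library sizes 123 of the 144 remained, on RLE library sizes 117, and without the filter 203 genes passed. Of 55 values recomputed for the main results with all other settings, 49 moved by less than 1.5 times or less than the spread of wells.

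With 1 library left out, the rule found from 137 to 173 genes. From 124 to 135 members were called lower in GA and from 117 to 126 lower in VP than in Con, from 14 to 18 higher and from 17 to 21 lower in GA than in VP. Over all genes tested in these fits, from 1118 to 1390 were higher and from 576 to 650 lower in GA than in VP. The median L ranged from -1.63 to -1.51 in GA and from -1.55 to -1.42 in VP. The median log2 fold change of GA against VP by edgeR ranged from -0.22 to -0.07.

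Deviations of same-numbered wells correlated from -0.33 to 0.10 between Con and GA and from -0.22 to 0.13 between GA and VP, so the numbers were not taken to pair wells in these comparisons. With the replicate block, 17 members were higher and 19 lower in GA than in VP, 138 were lower in GA and 135 lower in VP than in Con. Of all 11709 tested genes, 1237 were then higher and 607 lower in GA than in VP. Against Con, 663 of them were lower in GA and 1245 lower in VP. Below about 5 CPM in Con, most 95% intervals of GA against VP reached past 2-fold.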

Other observations

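Among the 15 genes that passed both fold thresholds but overlapped Con, 1 had 0, 88 and 150 counts in the Con wells and 0 counts in all 6 treated wells. Another had 0, 123 and 25 counts in Con, 0, 0 and 9 in GA, and 0, 0 and 14 in VP. One more had 206, 2161 and 2326 counts in Con, 1911, 0 and 0 in GA, and 12, 75 and 14 in VP. In each of these genes, at least 1 group held both a well at 0 counts and a well with counts. They were picked after their values were seen.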
